A study of Mus musculus with 9 samples.

Results

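The genes described here encode proteins of endothelium, the cell layer that lines blood vessels: Kdr, Flt1, Tek, Tie1, Pecam1, Cdh5, Esam, Cldn5, Eng and Emcn. They were chosen by symbol, with every probe set that the platform annotation gives to them, which came to 15 of 45101 probe sets and 10 of 18193 measured genes. The samples came from mouse embryos of embryonic day 16.5 and compared both sides of the temporomandibular joint, where the lower jaw meets the skull, with the whole body. There were 3 arrays of the condyle, which is the jaw's side, 3 of the fossa, which is the skull's side, and 3 of the whole body. No genotype, strain or drug treatment is given in the labels, and the labels list laser capture from frozen tissue for all 9 samples. The design text speaks of biological triplicates without naming embryos, so the tests weigh only the spread among the samples as deposited. Each captured sample held a mixture of cells, so fewer endothelial cells and less RNA per endothelial cell cannot be told apart.

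Endothelial cells receive growth signals through the VEGF receptors. Kdr (VEGFR2) carries most of the signal for growth and migration, and Flt1 (VEGFR1) binds the same ligand strongly and limits how much of it reaches Kdr. Angiopoietins act through Tek (Tie2), with the related receptor Tie1 beside it, and keep vessels stable. Cartilage is largely free of vessels, whereas bone forms in close contact with them, and both tissues lie side by side in the developing joint.

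Promoter sequences are shown for the gene that passed the test between a joint tissue and the whole body (Flt1), for the gene above background on all 9 arrays (Cldn5), and for a receptor at background on all 9 (Tie1). They were chosen with these values and the motif counts known. Capitals mark GGAAG, a core that ETS factors of endothelium can bind, or its reverse complement CTTCC. The sequences are from RefSeq (GRCm38.p6) and hold the 250 bases before the start used for each window, 5′ to 3′ along the gene: Flt1 at chr5:147726012-147726261 (minus strand), Cldn5 at chr16:18776597-18776846 (plus strand) and Tie1 at chr4:118489850-118490099 (minus strand). The start used for Flt1 lies within the span of the gene (chr5:147561604-147726438), so its window is inside that span.
Flt1: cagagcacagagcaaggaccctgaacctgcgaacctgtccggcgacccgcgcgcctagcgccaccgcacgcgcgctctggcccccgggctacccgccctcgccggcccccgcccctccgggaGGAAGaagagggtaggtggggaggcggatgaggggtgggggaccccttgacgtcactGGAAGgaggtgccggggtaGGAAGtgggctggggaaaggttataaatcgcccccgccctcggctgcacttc
Cldn5: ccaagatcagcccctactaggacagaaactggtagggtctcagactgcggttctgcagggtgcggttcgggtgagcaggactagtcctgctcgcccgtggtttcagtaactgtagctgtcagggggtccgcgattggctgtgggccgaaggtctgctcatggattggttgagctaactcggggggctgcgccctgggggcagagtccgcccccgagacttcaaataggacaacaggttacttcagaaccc
Tie1: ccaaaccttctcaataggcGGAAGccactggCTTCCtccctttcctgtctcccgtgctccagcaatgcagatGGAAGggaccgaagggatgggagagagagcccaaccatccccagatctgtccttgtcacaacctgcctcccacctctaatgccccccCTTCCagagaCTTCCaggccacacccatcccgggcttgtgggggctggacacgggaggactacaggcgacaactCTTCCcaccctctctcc
Searched on both strands, the core was present 3 times in the Flt1 window, at 128, 71 and 52 bases from the start used for it. It was present 6 times in the Tie1 window and 0 times in the Cldn5 window. Windows were found for 7 of the 10 genes, all but Pecam1, Cdh5 and Esam, and 5 of the 7 held the core. So did 64.1% of the 32851 promoter windows of the same length, with a median of 1 match. The longer motif AACAGGAA (or TTCCTGTT), which forkhead and ETS factors can bind together, was present in 1 of 7 (Emcn) and in 2.25% of all windows. A match is a string of letters in a window, and no level below was read from it.

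The endothelial genes ranged between no signal on any array and signal on all 9, in the whole body as in the joint. The deposited values are intensities, given here as log2, and the background limit of an array is the highest of 27 probe sets for Bacillus transcripts on it. This limit lay between 2.87 and 3.52. Pecam1, Tie1 and Emcn were at or under it on all 9 arrays, 3 of 10 genes against 23.2% of all genes. Only Cldn5 was above it on all 9, 1 of 10 against 42.6% of all genes. Flt1 and Tek were above it on 8 arrays, Esam on 7, Eng on 6, Cdh5 on 3 and Kdr on 1. In the condyle 4 of the 10 were above the limit on all 3 arrays (59.3% of all genes), in the fossa 2 (45.7%) and in the whole body 3 (51.7%). Set against the name endothelial, defining markers such as Pecam1 and Tie1 gave no signal above background in any group, the whole body included. Pecam1, Tie1 and Emcn have 1 probe set each, so a lack of signal there does not show that the transcript was absent.

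**Figure D1:**
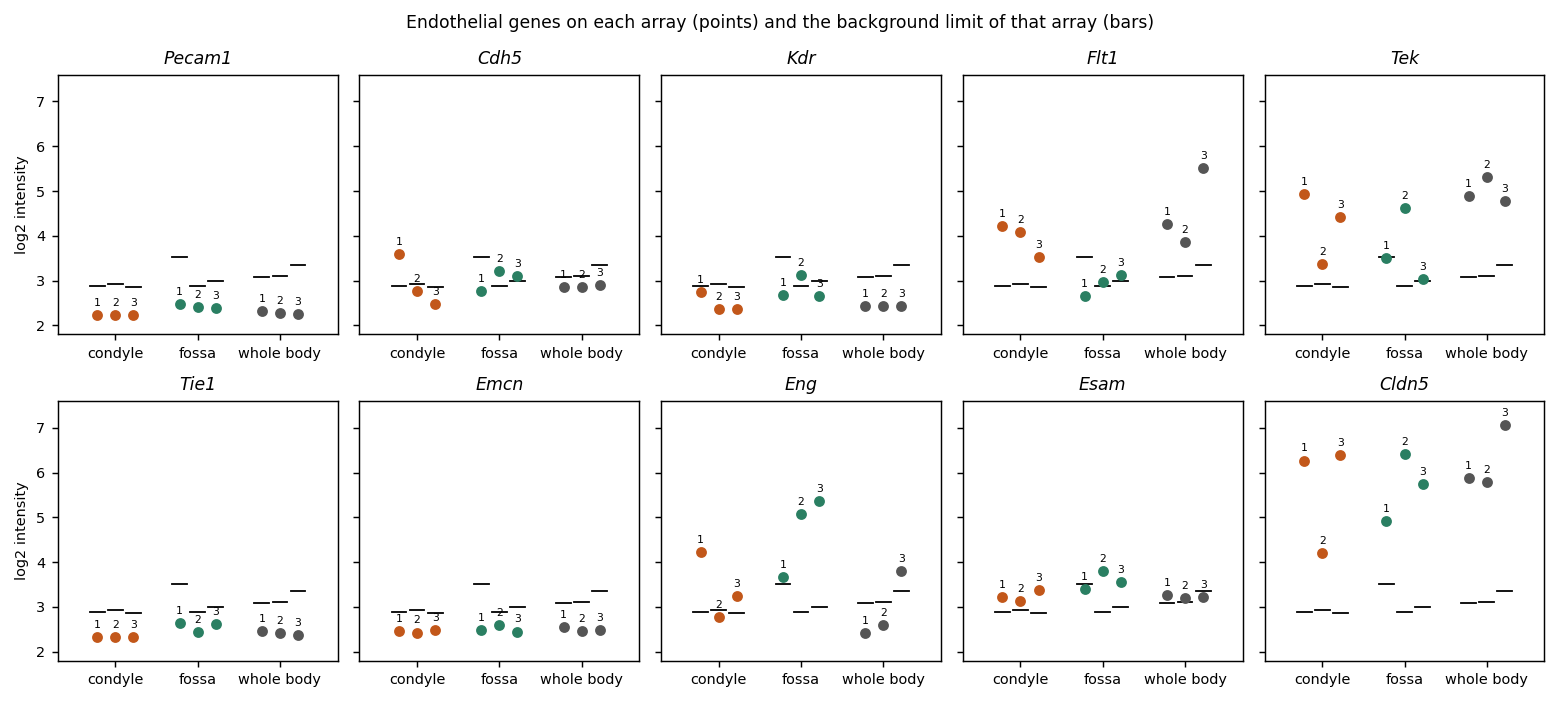
Log2 intensity (vertical axis) of the 10 endothelial genes on each array, by group (horizontal axis), each gene with the probe set of highest mean. Points are arrays 1 to 3 of a group and bars the background limit of that array. Pecam1, Tie1 and Emcn lie under the bars on all 9 arrays, Cldn5 lies above them on all 9, and Flt1 has its 3 fossa points under all condyle and whole body points.

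The arrays differed in ways that bear on these values. The share of genes above the limit was 62.3% to 65.2% on the condyle arrays, 47.9% to 61.2% on the fossa arrays and 55.3% to 63.0% on the whole body arrays. Fossa array 1 stood apart, with the lowest share and the highest limit (3.52). That limit is the value of 1 probe set, and the share above it depends on it. The 4215 genes at background on all 9 arrays had a median of 2.50 on fossa array 1, within the 2.42 to 2.54 of the other arrays. The 3′ minus 5′ log2 difference of fossa array 1 was 3.69 for the Gapdh controls and 4.79 for the Actb controls. Both were under those of the other 8 arrays (4.97 to 6.86 and 5.74 to 6.71). The upper quartile of log2 values was 4.81 to 4.90 in condyle, 4.03 to 4.29 in fossa and 4.35 to 4.54 in whole body, so the bright genes were not on 1 scale across groups. For that reason results are given as deposited and after quantile normalization, which gives all 9 arrays the same distribution. The median difference of all genes as deposited was -0.03 for condyle minus whole body, -0.11 for fossa minus whole body and 0.21 for condyle minus fossa. After quantile normalization it was within 0.01 of 0 in each.

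Among the VEGF receptors, Flt1 was low in the fossa. Its log2 intensity was 4.23, 4.08 and 3.52 in condyle, 2.65, 2.97 and 3.13 in fossa and 4.27, 3.86 and 5.52 in whole body. All 3 fossa arrays lay under all condyle and all whole body arrays, with fossa array 1 under its background limit, and the condyle and whole body arrays overlapped. Flt1 fell to 2.92 ± 0.24 in fossa, against 4.55 ± 0.86 in whole body (SD, n = 3 each), a log2 difference of -1.63 ± 0.42 (SE, limma adjusted p = 0.0359). As a fold this is at least 2.53, since a fossa value under the limit enters at the limit. After quantile normalization the difference was -1.58 (adjusted p = 0.0427).

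The remaining comparisons of Flt1 did not pass. Condyle minus fossa was 1.03 ± 0.42 with a 95% interval of 0.03 to 2.02 (adjusted p = 0.139), although the groups did not overlap. Condyle minus whole body was -0.60 ± 0.42, with an interval of -1.60 to 0.39 (adjusted p = 0.368). The fossa thus had the lowest mean, while condyle and whole body were not told apart beyond their spread. The fossa call was close to the threshold: it held under 8 of 20 other settings, with adjusted p between 0.0243 and 0.246. It did not hold without condyle array 1 or 2 (adjusted p = 0.0551 and 0.0573), whole body array 1 (0.0625), or fossa array 1, 2 or 3 (0.0943, 0.0809 and 0.0763).

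The call rests on 1 of the 4 Flt1 probe sets, 1451756_at. On 1454037_a_at Flt1 had 2.46, 2.45 and 2.43 in fossa, against 2.57, 2.55 and 2.74 in whole body. On 1440926_at it had 2.60, 2.67 and 2.57 in fossa, against 2.48, 2.43 and 2.42 in whole body. On 1419300_at it had 2.44, 2.99 and 2.26 in fossa, against 2.31, 2.27 and 2.26 in whole body. These 3 probe sets were under the limit on every array, with the exception of 1419300_at on fossa array 2. Over all probe sets tested 1 by 1, fossa minus whole body was called for 16.8%. Among the 15 these were 1451756_at (lower, adjusted p = 0.0421), the Flt1 probe set 1440926_at (higher by 0.17 under the background limit, adjusted p = 0.0271) and the Pecam1 probe set (adjusted p = 0.0418). With the mean of the 4 probe sets the Flt1 difference was -0.34 (adjusted p = 0.131).

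Kdr was above background on fossa array 2 only. Its log2 intensity was 2.75, 2.37 and 2.38 in condyle, 2.68, 3.13 and 2.66 in fossa and 2.42, 2.43 and 2.43 in whole body. The fossa arrays lay above the whole body arrays and overlapped with the condyle. Fossa minus whole body was 0.40 ± 0.16 (adjusted p = 0.124) and condyle minus whole body 0.07 ± 0.16 (adjusted p = 0.760), and neither passed.

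The angiopoietin receptor Tek was measured at 4.94, 3.38 and 4.42 in condyle, 3.51, 4.63 and 3.04 in fossa and 4.90, 5.31 and 4.78 in whole body. All fossa arrays lay under all whole body arrays, the condyle overlapped with both, and condyle array 2 and fossa arrays 1 and 3 were the low ones, with fossa array 1 just under its limit. Fossa minus whole body was -1.27 ± 0.51, with an interval of -2.47 to -0.07 (adjusted p = 0.131). Condyle minus whole body was -0.75 ± 0.51 (adjusted p = 0.357) and condyle minus fossa 0.52 ± 0.51 (adjusted p = 0.536). None of these passed, here or after quantile normalization. Tie1, its partner receptor, stayed between 2.33 and 2.65 on all 9 arrays, under the limit of each. Its condyle arrays lay under its fossa arrays by -0.23 ± 0.07, which did not pass (adjusted p = 0.0590).

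Eng encodes endoglin, a co-receptor for TGF-beta and BMP ligands on endothelium. The probe set used for it, 1432176_a_at, had 4.23, 2.79 and 3.24 in condyle, 3.66, 5.07 and 5.37 in fossa and 2.42, 2.59 and 3.81 in whole body. Fossa arrays 2 and 3 were the highest of the 9, while fossa array 1 lay under whole body array 3. Fossa minus whole body was 1.76 ± 0.61, with an interval of 0.33 to 3.19, and missed the threshold (adjusted p = 0.0868). It passed after quantile normalization, at 2.13 (adjusted p = 0.0436), and without fossa array 1, at 2.28 (adjusted p = 0.0418). The other probe set did not give this order. On 1417271_a_at Eng had 4.26, 3.34 and 3.26 in condyle, 3.06, 3.06 and 3.09 in fossa and 3.61, 3.37 and 2.81 in whole body. There all 3 fossa arrays lay under all 3 condyle arrays and between those of the whole body.

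**Figure D2:**
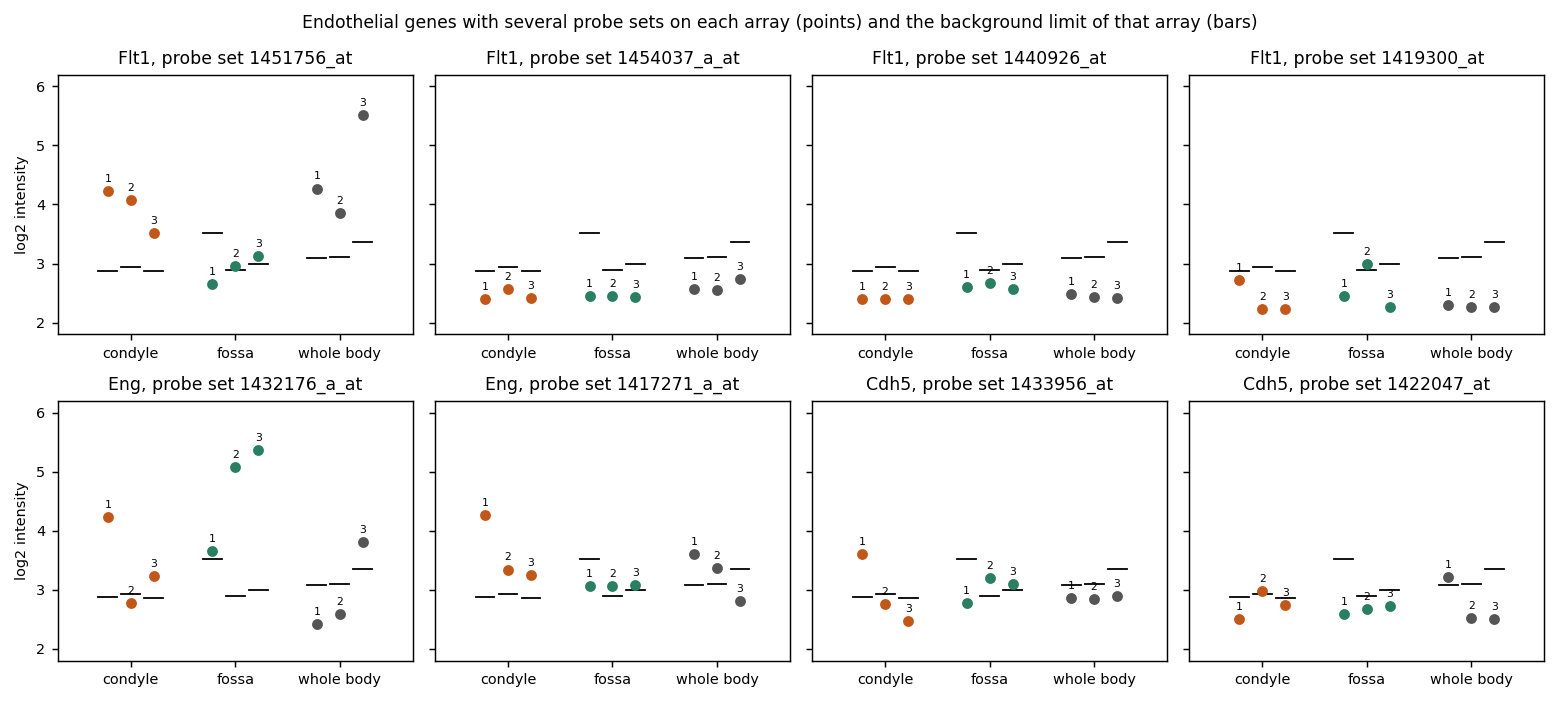
Log2 intensity (vertical axis) of each probe set of Flt1, Eng and Cdh5, by group (horizontal axis). Points are arrays 1 to 3 of a group and bars the background limit of that array. Of 4 Flt1 probe sets 1451756_at alone is above the bars in condyle and whole body, and the 2 Eng probe sets place the fossa differently.

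The junction genes did not pass between a joint tissue and the whole body as deposited. Cldn5, the tight junction claudin of endothelium, had 6.27, 4.21 and 6.39 in condyle, 4.92, 6.42 and 5.75 in fossa and 5.87, 5.78 and 7.05 in whole body. The groups overlapped in each comparison, and condyle array 2 was the lowest of the 9 arrays. The difference was -0.61 ± 0.70 for condyle minus whole body, with an interval of -2.25 to 1.03, and -0.54 ± 0.70 for fossa minus whole body, with an interval of -2.18 to 1.10. It was -0.07 ± 0.70 for condyle minus fossa (-1.71 to 1.57). The intervals are wide, and the arrays do not show Cldn5 to be equal among the tissues.

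Esam, an adhesion molecule of endothelial junctions that platelets also carry, lay near the background limit. It had 3.22, 3.12 and 3.38 in condyle, 3.41, 3.81 and 3.56 in fossa and 3.27, 3.20 and 3.23 in whole body. All fossa arrays were above all condyle and whole body arrays, with fossa array 1 and whole body array 3 under their limits. Fossa minus whole body was 0.36 ± 0.12 (adjusted p = 0.0693) and condyle minus fossa -0.35 ± 0.12 (adjusted p = 0.0780), and neither passed as deposited. After quantile normalization Esam was higher by 0.71 in fossa than in whole body (adjusted p = 0.00441) and lower by 0.64 in condyle than in fossa (adjusted p = 0.0118). Without fossa array 1 both passed as deposited, at 0.46 (adjusted p = 0.0377) and -0.45 (adjusted p = 0.0459).

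Cdh5 encodes VE-cadherin, the adherens junction cadherin of endothelium. The probe set used for it, 1433956_at, had 3.60, 2.76 and 2.48 in condyle, 2.77, 3.21 and 3.11 in fossa and 2.86, 2.85 and 2.90 in whole body. Condyle array 1 and fossa arrays 2 and 3 were above background, and the groups overlapped. The other probe set, 1422047_at, was between 2.50 and 3.22, with condyle array 2 and whole body array 1 above the limit. Neither probe set passed in a comparison.

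Pecam1, the platelet and endothelial cell adhesion molecule, had 2.24, 2.23 and 2.23 in condyle, 2.48, 2.41 and 2.39 in fossa and 2.32, 2.27 and 2.26 in whole body. The condyle arrays lay under the fossa arrays, and all 9 were under the background limit. Condyle minus fossa passed the test at -0.19 ± 0.05 (adjusted p = 0.0434), but no fold is given because both groups were at background. Of the 4215 genes at background on all 9 arrays, 4.65% were called lower and 2.18% higher in condyle than in fossa, with a median difference of -0.04. After quantile normalization the Pecam1 difference was -0.16 (adjusted p = 0.0542). The Pecam1 call was also lost without any 1 of the condyle or fossa arrays or whole body array 2 (adjusted p = 0.0638 to 0.111). Emcn, a sialomucin of venous and capillary endothelium, ranged between 2.43 and 2.59 with no comparison passed.

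Counted together as deposited, the endothelial genes passed the adjusted threshold in a share no higher than that of all genes. Condyle minus whole body called 0 of 10, against 13.2% of all genes, and 0 of 10 had an unadjusted p under 0.05, against 28.1%. Their median difference was -0.05, and Pecam1 and Tie1 lay below without overlap (2 of 10, against 33.4% of all genes), while 0 lay above (against 19.8%). Fossa minus whole body called 1 of 10, Flt1, against 19.6% of all genes, where 15.6% were lower in fossa, as Flt1 was, and 3.99% higher. At an unadjusted p under 0.05 it had 6 of 10, against 33.3%, namely Pecam1, Kdr, Flt1, Tek, Eng and Esam. Without overlap, Pecam1, Kdr and Esam lay above, as 11.1% of all genes did, and Flt1 and Tek below, as 31.1% did, and the median was 0.15.

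Condyle minus fossa called 1 of 10, Pecam1, against 18.9% of all genes, where 2.13% were lower in condyle, as Pecam1 was, and 16.8% higher. At an unadjusted p under 0.05 it had 4 of 10 (Pecam1, Flt1, Tie1 and Esam), against 33.5%. The groups did not overlap for 4 of 10: Flt1 lay above, as 33.9% of all genes did, and Pecam1, Tie1 and Esam below, as 15.8% did. The median was -0.14, where the median of all genes was 0.21. The F test for any difference among the 3 groups called 0 of 10 in limma, against 28.1% of all genes, and 4 of 10 had an unadjusted p under 0.05, against 41.7%. The lowest adjusted p was that of Flt1 (0.0573), followed by Pecam1 (0.0610).

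After quantile normalization fossa minus whole body called 4 of 10, against 17.1% of all genes: Eng, Esam and Pecam1 higher, as 8.03% of all genes were, and Flt1 lower, as 9.04% were. Condyle minus whole body called 0 of 10, against 8.97%. Condyle minus fossa called 1 of 10, Esam, against 6.4%, where 2.64% were lower in condyle, as Esam was. The F test called 2 of 10, Esam (adjusted p = 0.00624) and Pecam1 (adjusted p = 0.0395), against 17.3%. The plot of differences shows both scalings side by side. The comparisons share their arrays pairwise, so they are not independent of each other.

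**Figure D3:**
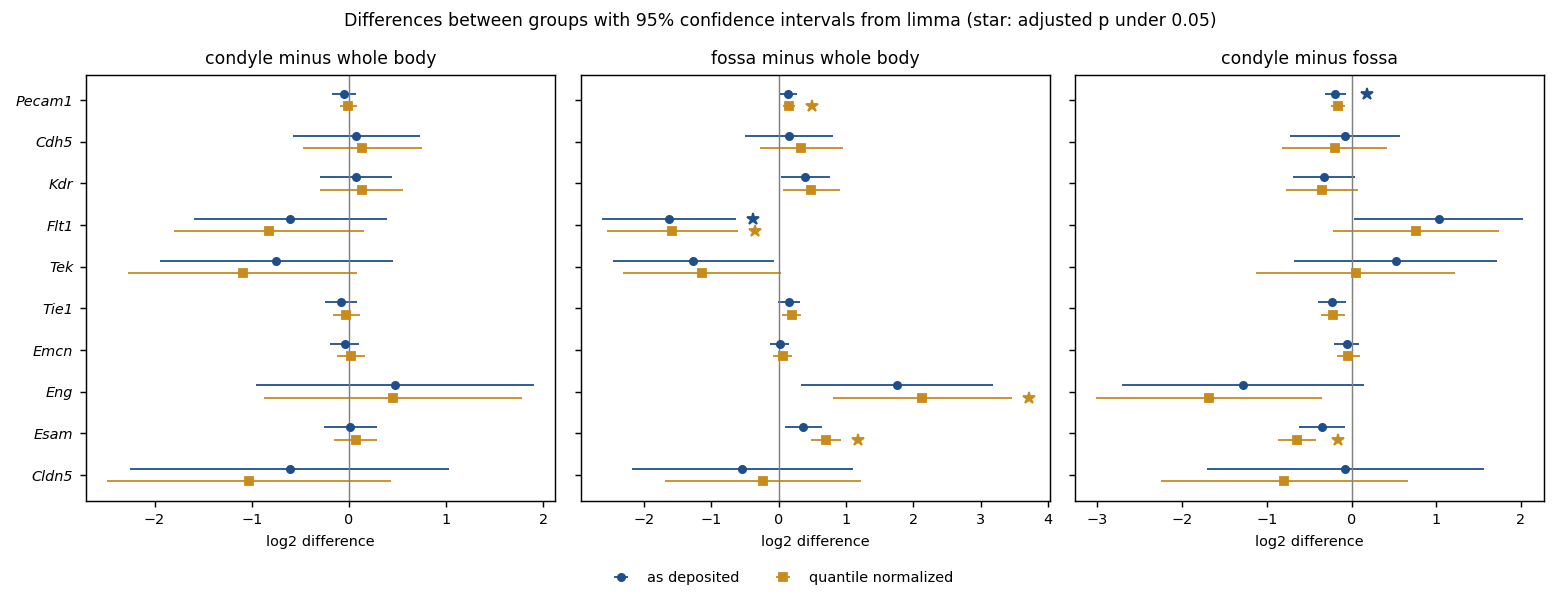
Log2 difference (horizontal axis) with 95% confidence interval for the 10 endothelial genes (vertical axis) in each comparison, as deposited (circles) and after quantile normalization (squares). Stars mark an adjusted p under 0.05. Flt1 in fossa minus whole body is starred under both scalings (-1.63 and -1.58), Eng, Esam and Pecam1 there only after quantile normalization, and Cldn5, Tek and Eng have the widest intervals.

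The 3 arrays of a joint tissue also differed from each other in these genes. Of the 7 genes above the limit on any array, condyle array 1 was the highest of its group for 5 and condyle array 2 the lowest for 5, and fossa array 2 was the highest of its group for 5. Kdr is among them in both groups, although its condyle values were all at background. Fossa array 1 was the lowest of its group for 5 of the 7. The mean over the 10 genes was 3.63, 2.97 and 3.29 in condyle, 3.12, 3.67 and 3.41 in fossa and 3.34, 3.32 and 3.68 in whole body. This pattern was noticed after the values were seen. Among all genes above the limit on any array, condyle array 1 was the highest of its group for 34.4% and fossa array 2 for 36.7%. Of these 13978 genes, condyle array 2 was the lowest of its group for 5351 and fossa array 1 for 5064.

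Some of the other endothelial lists were highest on the same arrays and some were not. Of the 20 other endothelial genes, such as Plvap, Cd34, Egfl7, Aplnr and Cd93, condyle array 1 was the highest of its group for 18 and fossa array 2 for 14. Aplnr, the apelin receptor of growing vessels, had 10.51, 7.89 and 7.96 in condyle, 8.30, 10.56 and 9.04 in fossa and 9.02, 8.93 and 9.05 in whole body. Plvap, a protein of the diaphragms of fenestrated vessels, had 7.95, 6.04 and 5.86 in condyle, 6.79, 7.68 and 7.67 in fossa and 6.38, 6.40 and 6.24 in whole body. Both genes were above background on all 9 arrays, with close values in the whole body and a wide spread in the joint tissues. Of 12 endothelial transcription factors, such as Erg and Fli1, condyle array 1 was the highest of its group for 12 and fossa array 2 for 9. Of 12 arterial, venous and tip cell genes, condyle array 1 was the highest of its group for 8, but fossa array 2 for 3, and it was the lowest for 6. Of 6 brain endothelium genes, condyle array 1 was the highest for 1 and fossa array 2 for 0. Unlike the shares of all genes given above, these list counts include genes at background on all 9 arrays. Such were 1 of the 20 other endothelial genes and 0 of the 12 transcription factors. So were 3 of the 12 arterial, venous and tip cell genes and 3 of the 6 brain endothelium genes.

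Osteoblast markers were highest on the same 2 arrays. The mean of 4 osteoblast markers was 10.48, 8.08 and 8.53 in condyle, 8.70, 10.99 and 10.31 in fossa and 6.92, 7.03 and 6.92 in whole body. Condyle array 1 and fossa array 2 were the highest of their groups for all 4 of them. The mean of 9 macrophage and leukocyte markers was 5.21, 3.65 and 3.67 in condyle, 4.38, 4.64 and 4.26 in fossa and 5.08, 5.29 and 5.29 in whole body. Of the 9, condyle array 1 was the highest of its group for 8, while fossa arrays 1 and 2 were each the highest for 4. Itgam was at background on all 9 arrays, and Cd68 was above it on condyle array 1 only. The mean of 7 chondrocyte markers was 9.53, 9.86 and 9.0 in condyle, 9.46, 9.96 and 8.54 in fossa and 5.51, 5.29 and 4.90 in whole body, with condyle array 2 and fossa array 2 each the highest of its group for 5. Of 8 erythroid markers, condyle array 1 was the highest for 4 and fossa array 2 for 3, and of 6 platelet and megakaryocyte markers each was the highest for 2. Of these 6 markers, 2 were at background on all 9 arrays. The part of the bone and blood-derived cells in the endothelial values was not tested.

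**Figure D4:**
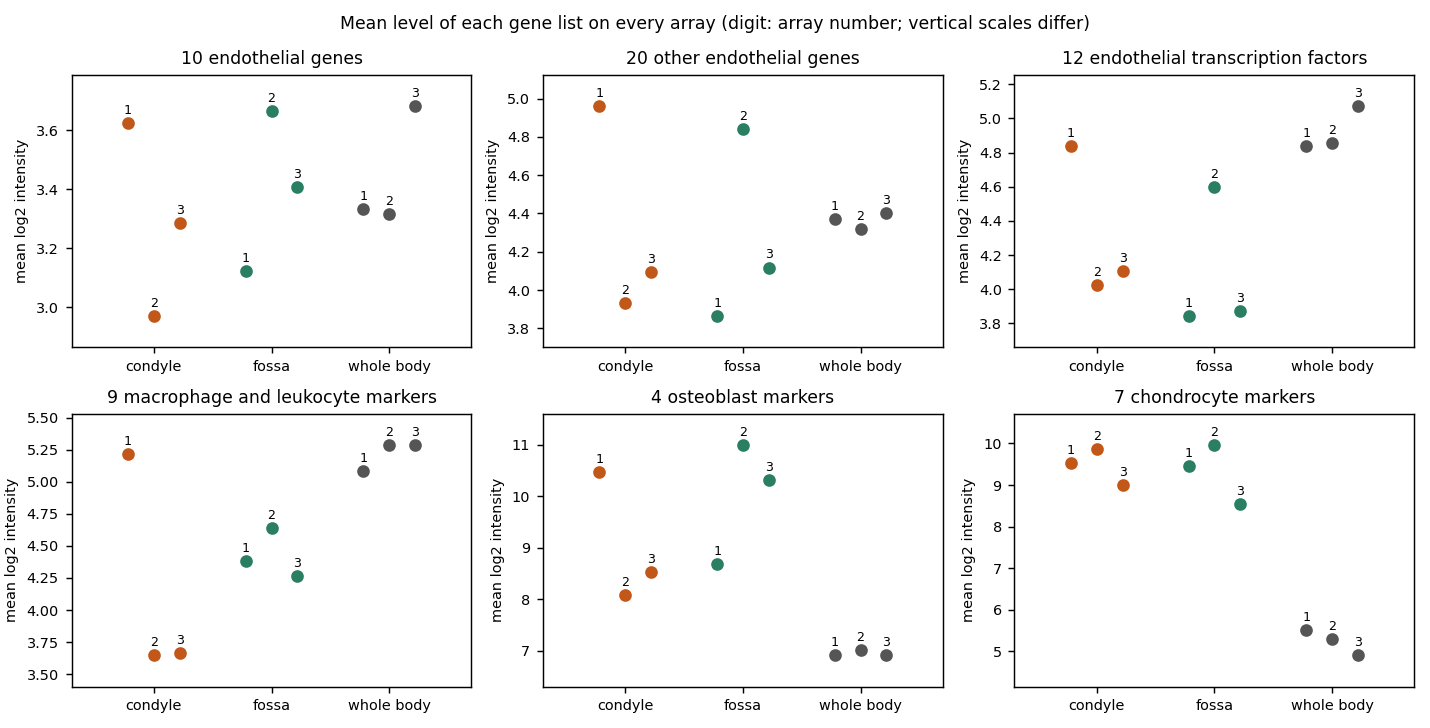
Mean log2 intensity (vertical axis) over the genes of a list on each array, by group (horizontal axis), with the array number beside each point. The vertical scales differ between panels. Condyle array 1 and fossa array 2 are the highest of their groups for the 10 endothelial genes (3.63 and 3.67), the other endothelial genes, the transcription factors, the macrophage and leukocyte markers and the osteoblast markers, whereas for the chondrocyte markers the highest are condyle array 2 and, again, fossa array 2.

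Deviations from the group means, over 9 arrays that share these differences, described which genes went together. Pearson's r over the 45 pairs of endothelial genes had a median of 0.218, with 27 above 0. The highest were 0.852 for Kdr and Tek, 0.771 for Eng and Cldn5 and 0.752 for Cdh5 and Kdr. Of these genes, Kdr was above the limit on only 1 of the 9 arrays and Cdh5 on 3. The lowest were -0.741 for Pecam1 and Eng, -0.737 for Tie1 and Esam and -0.711 for Tie1 and Kdr, each with a gene at background on all 9 arrays. For Flt1 and Tek it was -0.20. Across all 9 log2 values, the genes most like the mean of the 10 centred endothelial genes were Tmeff2 (r = 0.941), Slit2 (0.909), Gucy1a1 (0.908), Hacd4 (0.897), Nefm (0.889), Ccdc80 (0.874), Gnai1 (0.852) and AI467606 (0.852). They were found among 11977 genes above the limit on at least 3 arrays. Slit2, a secreted guidance protein, had 8.88, 5.17 and 6.60 in condyle, 6.61, 8.74 and 8.0 in fossa and 6.78, 7.61 and 7.89 in whole body, with condyle array 2 the lowest and condyle array 1 the highest. With 9 arrays and this many genes searched, these r values are a description only.

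A list of 12 VEGF and angiopoietin genes held ligands, co-receptors, the receptor Flt4 and the phosphatase Ptprb. Of these 12 genes, 2 were higher and 0 lower in condyle than in whole body. Over all genes 9.34% were higher there. In fossa 1 was higher and 0 lower than in whole body, where 3.99% of all genes were higher. Between condyle and fossa 0 were called by limma, against 18.9% of all genes, and 3 had an unadjusted p under 0.05, against 33.5%. The medians were -0.33, 0.05 and -0.07. Vegfa, the main ligand of Kdr and Flt1, had 4.08, 4.24 and 3.59 in condyle, 3.53, 3.67 and 3.22 in fossa and 2.46, 2.53 and 2.48 in whole body. It was above background on all joint arrays and at background in the whole body, and rose at least 1.72-fold in condyle (adjusted p = 0.00378) and at least 1.22-fold in fossa (adjusted p = 0.0111). Both calls held with each of the 9 arrays left out in turn. Nrp2, a neuropilin that binds VEGF and semaphorins, was higher in condyle, at 6.54 ± 0.71, against 4.14 ± 0.20 in whole body (SD, n = 3 each). The difference was 2.40 ± 0.53 (adjusted p = 0.0272; 0.0586 after quantile normalization). It held only with a fossa array left out, in 3 of 9 cases, with adjusted p of 0.0502 to 0.0767 without any 1 of the condyle or whole body arrays.

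The other ligands did not pass as deposited. Angpt1, the activating ligand of Tek, had 3.20, 2.36 and 2.28 in condyle, 3.59, 4.73 and 3.74 in fossa and 3.08, 4.41 and 4.32 in whole body. All condyle arrays lay under all fossa arrays (-1.41 ± 0.48, adjusted p = 0.0838), with condyle arrays 2 and 3 under their background limits. Angpt2, which can oppose Angpt1, was 0.75 ± 0.35 higher in condyle than in whole body without passing (adjusted p = 0.216). On whole body array 1 Angpt2 was under the limit. Vegfc, a ligand of Flt4 and Kdr, was at -1.09 ± 0.43 in condyle minus whole body (adjusted p = 0.156). After quantile normalization it was lower there by 1.53 (adjusted p = 0.0439).

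Of 12 endothelial transcription factors, 1 was lower in condyle and 3 were lower in fossa than in whole body, with 0 higher in either. Over all genes 3.84% were lower in condyle and 15.6% in fossa. Limma called 0 of the 12 between condyle and fossa, against 18.9% of all genes, and 3 had an unadjusted p under 0.05, against 33.5%. The medians were -0.39, -0.60 and 0.22. Tal1, a factor of blood and endothelial precursors, was at least 16.9-fold lower in condyle (adjusted p = 0.000194) and at least 13.2-fold lower in fossa (adjusted p = 0.000172), with both calls kept whichever array was left out. Klf2, a factor that responds to blood flow, was at least 1.90-fold lower in fossa (adjusted p = 0.0222), but not without fossa array 1, 2 or 3 or whole body array 2 (adjusted p = 0.0543 to 0.0636). Gata2 was at least 1.62-fold lower in fossa (adjusted p = 0.0402; 0.115 after quantile normalization). Its call was kept in 3 of 9 cases, without condyle array 1 or 3 or fossa array 1. Tal1 and Gata2 also act in red cell precursors. Of 8 erythroid markers, such as Hbb-bh1, Alas2 and Slc4a1, 5 were lower in condyle and 6 in fossa than in whole body, of which Hbb-bh1, Ermap and Hemgn kept their calls in both whichever array was left out. Their mean was 5.34 to 5.78 on the condyle arrays, 4.55 to 5.63 on the fossa arrays and 9.25 to 9.52 on the whole body arrays, and its part in the values of Tal1 and Gata2 was not tested.

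Of the 20 other endothelial genes, 0 were higher and 1 lower in condyle than in whole body, 0 were higher and 1 lower in fossa than in whole body, and 1 was higher and 0 lower in condyle than in fossa, where 13.2%, 19.6% and 18.9% of all genes were called. The medians were -0.09, 0.16 and -0.03. Calcrl, the receptor for adrenomedullin and calcitonin gene-related peptide, had 3.79, 4.17 and 3.41 in condyle, 3.39, 4.10 and 3.67 in fossa and 5.17, 5.75 and 5.55 in whole body. All joint arrays lay under all whole body arrays, with differences of -1.70 ± 0.26 in condyle (adjusted p = 0.00834) and -1.77 ± 0.26 in fossa (adjusted p = 0.00466), both kept whichever array was left out. Ramp2, its partner at the membrane, had 6.01, 5.88 and 5.54 in condyle, against 3.54, 4.76 and 4.87 in fossa. It was higher in condyle by 1.42 ± 0.34 (adjusted p = 0.0298), but not after quantile normalization (adjusted p = 0.282), nor without condyle array 1, 2 or 3 (adjusted p = 0.0915, 0.0812 and 0.0559). Cd34, a surface sialomucin of endothelium and blood precursors, had 6.43, 5.57 and 4.55 in condyle, against 2.56, 3.08 and 3.57 in whole body. The groups did not overlap, and the difference of 2.44 ± 0.72 did not pass (adjusted p = 0.0690). Whole body arrays 1 and 2 were under their limits for Cd34.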

How the data were processed

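RNA of 9 laser-captured samples was hybridised as biotin-labelled cRNA to an Affymetrix mouse array, per the labels' protocols. The authors deposited linear intensities, which ranged from 3.25 to 67158.9. The submitters' processing notes name limma without a version, and the authors' background correction and normalization are not given in the sources used here. Values were converted to log2. Gene names came from the platform annotation, checked against RefSeq (GRCm38.p6), with 0 symbols changed. Of the probe sets, 34945 had 1 symbol, 932 several and 9160 none, and 64 were controls. Each gene was represented by its probe set with the highest mean.

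Groups were compared with limma 3.58.1 (R 4.3.3, lmFit and eBayes, 9 arrays in 1 fit, 6 residual degrees of freedom). Benjamini-Hochberg adjusted p over 18193 genes was called under 0.05. The fit was tested on simulated data. All 10 endothelial genes are named, with up to 4 genes past the threshold per list and comparison and the 8 most like the endothelial mean. Leaving out arrays for the called list genes was added after the values were seen. Genes of lists named without passing were chosen after their values were seen. The 14 lists held 127 genes, of which 121 were measured here. The members and lists were chosen with earlier results of these data known. A fold is written "at least" where an array of the dimmer group was at or under its limit, which then replaces the lower value. The number of arrays limits the precision.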

Additional observations from a re-analysis of the deposited data

How the results depend on the processing

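The same tests were repeated under 20 other settings, among them each array left out in turn. With the array number as a block, the endothelial genes called were 0 for condyle minus whole body, 0 for fossa minus whole body and 0 for condyle minus fossa. The labels do not say whether same-numbered arrays share an embryo. Same-numbered arrays deviated from their group means with correlations of -0.44 to 0.15, which cannot decide this with 3 arrays per group. Condyle minus whole body called 0 endothelial genes, but 4 with arrays centred on the upper quartile. These were Esam, at -0.38 there against 0.01 (adjusted p = 0.0433), and Pecam1, Tie1 and Emcn, which were at background on all 9 arrays. This centring moves every gene of a comparison by the same amount, genes at background included. Pecam1 went from -0.05 to -0.447 and Kdr from 0.07 to -0.325. Leaving out arrays gave 0 to 0 endothelial genes called. Fossa minus whole body called 1, but 4 after quantile normalization, also with probe sets chosen anew (4), 3 with arrays centred on the median, 3 on the upper quartile, 2 with trend and robust priors, and 0 with a common floor, with the mean of all probe sets or with only the 2 groups fitted. Leaving out arrays gave 0 to 2. Condyle minus fossa called 1, but 2 with arrays centred on the median, 6 on the upper quartile, 2 with the mean of all probe sets, 2 with trend and robust priors, 2 with only the 2 groups and 0 with a common floor or without genes at background. Leaving out arrays gave 0 to 2. Genes called for condyle minus whole body were 2398 (1699 higher, 699 lower), 1632 after quantile normalization (824 and 808), 8602 on the upper quartile (1459 and 7143), and 1470 to 2591 without 1 array. For fossa minus whole body they were 3559 (726 and 2833), 3105 after quantile normalization (1461 and 1644), 1893 with a common floor, and 2343 to 3352 without 1 array. For condyle minus fossa they were 3440 (3053 and 387), 1164 after quantile normalization (684 and 480), 1168 with probe sets chosen anew, 7142 on the upper quartile (715 and 6427), 1823 with a common floor, and 2086 to 3515 without 1 array. On the upper quartile these counts include the uniform shift given above, and the causes of the other changes were not tested. Where no count of all genes is given for a setting, its number of endothelial genes called has no share to be read against. Such a number is not a result about these genes. Sign was kept under all settings for 3 of 10 endothelial genes in condyle minus whole body, 9 in fossa minus whole body and 7 in condyle minus fossa, over settings that gave a value. The common floor gave none for Pecam1, Tie1 and Emcn. The background limit bears on 4 of the 10 genes in all condyle arrays, 3 in all fossa arrays and 5 in all whole body arrays, and 3 arrays per group limit the rest.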

Other observations

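As deposited, 13.2% of all genes were called in condyle minus whole body, 19.6% in fossa minus whole body and 18.9% in condyle minus fossa. In the same order, 28.1%, 33.3% and 33.5% had an unadjusted p under 0.05 in limma. Of 12 arterial, venous and tip cell genes, 1 was higher in condyle than in whole body, and 0 were called in fossa minus whole body or in condyle minus fossa by limma (3 in each had an unadjusted p under 0.05). It was Ephb4, a venous ephrin receptor, with 3.14, 3.36 and 2.87 in condyle, against 2.38, 2.29 and 2.26 in whole body (adjusted p = 0.0136). No fold is given, because condyle array 3 and all 3 whole body arrays were at background and the limits there reached above the condyle mean. Of 4 lymphatic genes, Lyve1 was lower by 2.62 ± 0.56 in condyle (adjusted p = 0.0248) and by 3.42 ± 0.56 in fossa (adjusted p = 0.00674) than in whole body. The condyle call was lost without any 1 of the condyle arrays or without whole body array 2 or 3 (adjusted p = 0.0503 to 0.0753). Lyve1, a hyaluronan receptor, is also carried by fetal macrophages and liver sinusoids. Of 6 liver sinusoid genes, 0 were called in condyle by limma (3 at an unadjusted p under 0.05) and 1, Oit3, was lower in fossa with both groups at background, kept in 7 of 9 cases but not after quantile normalization (adjusted p = 0.0667). Of 6 brain endothelium genes 0 were called in each of the 3 comparisons, where 0, 1 and 0 had an unadjusted p under 0.05 in limma.

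Of 10 genes of pericytes and vascular smooth muscle, 3 were called in condyle and 2 in fossa against the whole body. Over all genes 13.2% and 19.6% were called there. The calls went both ways, with 2 higher and 1 lower in condyle and 1 higher and 1 lower in fossa. Cspg4 (NG2) was higher by 3.70 ± 0.54 in condyle (adjusted p = 0.00685) and by 3.26 ± 0.54 in fossa (adjusted p = 0.00716) than in whole body. Chondrocytes also make Cspg4, and 6 of 7 chondrocyte markers were higher in each joint tissue than in whole body. Of these calls, that of Matn1 in fossa was lost without whole body array 1 or 2. The part of chondrocytes in the Cspg4 values was not tested. Notch3 was higher by 1.83 ± 0.36 in condyle (adjusted p = 0.0198; 0.0674 after quantile normalization), but not without condyle array 1 or 2 or whole body array 1 (adjusted p = 0.0516 to 0.0651). Tagln, a smooth muscle actin-binding protein, was at least 2.52-fold lower in condyle (adjusted p = 0.00888) and at least 2.01-fold lower in fossa (adjusted p = 0.0254; 0.0772 after quantile normalization). The fossa call was lost without fossa array 2 or 3 or whole body array 2 (adjusted p = 0.0522 to 0.0793).

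Platelets share Pecam1 and Esam with endothelium. Of 6 measured platelet and megakaryocyte markers, Pf4 was lower by 3.53 ± 0.69 in condyle than in whole body (adjusted p = 0.0183; 0.0577 without condyle array 2 and 0.0599 without whole body array 2), and Ppbp was at least 6.26-fold lower in condyle and at least 5.92-fold lower in fossa. Gp1bb was higher by 1.31 ± 0.33 in condyle (adjusted p = 0.0439; 0.133 after quantile normalization) and by 1.28 ± 0.33 in fossa (adjusted p = 0.0357), each kept in 1 of 9 cases, without whole body array 3. Of the 9 macrophage and leukocyte markers, Lyz2 was at least 11.4-fold lower in condyle (adjusted p = 0.0315) and lower by 3.41 ± 0.86 in fossa (adjusted p = 0.0331), each kept in 4 of 9 cases with an array left out, and Fcgr3 was lower by 1.77 ± 0.32 in condyle (adjusted p = 0.0141). Of 4 osteoblast markers, Col1a1 was higher in both joint tissues (kept in 2 of 9 cases in condyle and 8 of 9 in fossa, and in condyle not after quantile normalization, adjusted p = 0.0588) and Dmp1 in fossa. Of 5 liver parenchyma markers 4 were lower in each joint tissue than in whole body, and Alb was at least 1.87-fold higher in condyle than in fossa, where it was at background (kept in 6 of 9 cases, but not after quantile normalization, adjusted p = 0.0512). The marker not called, Ttr, had 9.8, 11.8 and 15.2 in condyle, 5.6, 4.2 and 15.1 in fossa and 14.9, 14.7 and 14.8 in whole body. Array 3 of each joint tissue thus stood apart from the rest of its group in Ttr. In condyle minus fossa, Sox9 of the chondrocyte markers was higher in condyle, kept whichever array was left out. By limma 0 of the mural, lymphatic, erythroid, macrophage, platelet, osteoblast and liver sinusoid markers were called there (1, 1, 0, 1, 0, 1 and 0 at an unadjusted p under 0.05).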
